A study of Mus musculus with 8 samples.

Results

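Retinoic acid acts through a small set of nuclear receptors. Followed here were the retinoic acid receptors Rara, Rarb and Rarg and the retinoid X receptors Rxra, Rxrb and Rxrg. Beside them stood the orphan COUP-TF receptors Nr2f1 and Nr2f2, and Nrip1, which encodes a corepressor, 9 genes in total. They were taken by gene name from the RNA-seq count table, where all 9 were found among 32567 genes, and all 9 were above the expression limit that 14417 genes passed (a log2 CPM, averaged over the 4 libraries, above 0). RNA was sequenced from mouse embryonic stem cells (ESC) and from cells derived through embryoid bodies and treatment with retinoic acid (RA-DIFF). Both were grown from a wild-type parental line and from a huntingtin-null line that carries the targeted null allele Hdh ex4/5 on both chromosomes (Htt-null). The stem cells were kept with leukemia inhibitory factor on irradiated mouse embryonic fibroblast feeders or on gelatin, and were taken through 4 passages without feeders before embryoid bodies were formed. Each of the 4 conditions was 1 library from 1 cell line, so no difference below has a replicate check, and a test at an assumed dispersion is given only as an alternative way of calling. In bulk RNA, fewer cells of a type and less RNA per cell cannot be told apart.

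Retinoic acid receptors bind DNA as heterodimers with retinoid X receptors, at direct repeats of a hexamer. Without ligand the pair holds corepressor complexes, and with all-trans retinoic acid it exchanges them for coactivators, so that target genes are transcribed. Rarb and the retinoic acid hydroxylase gene Cyp26a1 are textbook targets that carry such repeats close to their starts. The COUP-TF receptors are orphan receptors of neural and mesenchymal progenitors that can compete for the same repeats, and Nrip1 (RIP140) binds liganded receptors and recruits histone deacetylases.

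The sequences around the starts of the genes were searched first, because a repeat spaced by 5 bases (DR5) is the classical retinoic acid response element. The 2 windows printed here are the Rarb one, which held the single DR5 found among the 18 promoter windows of the 9 genes, and that of Cyp26a1 for comparison. Both come from RefSeq on GRCm38.p6 and run from 250 bases before to 50 bases after an annotated start. Capitals mark the 2 hexamers of the repeat.
Rarb, chr14:16575427-16575726, minus strand: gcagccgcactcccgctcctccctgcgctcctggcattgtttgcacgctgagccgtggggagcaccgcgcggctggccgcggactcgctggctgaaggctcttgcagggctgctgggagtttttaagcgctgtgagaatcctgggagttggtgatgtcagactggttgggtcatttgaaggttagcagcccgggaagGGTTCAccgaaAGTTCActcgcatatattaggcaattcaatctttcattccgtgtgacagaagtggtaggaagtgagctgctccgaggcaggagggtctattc
Cyp26a1, chr19:37697558-37697857, plus strand: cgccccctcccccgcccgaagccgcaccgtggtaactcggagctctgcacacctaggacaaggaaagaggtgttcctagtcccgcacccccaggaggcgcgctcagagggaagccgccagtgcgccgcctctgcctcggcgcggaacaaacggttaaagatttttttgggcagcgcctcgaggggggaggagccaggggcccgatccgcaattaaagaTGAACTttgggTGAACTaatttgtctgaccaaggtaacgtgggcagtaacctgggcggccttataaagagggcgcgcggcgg
The Rarb repeat, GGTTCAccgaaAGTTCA, lies 53 to 37 bases before the start. The Cyp26a1 repeat, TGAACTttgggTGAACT, lies 32 to 16 bases before the start and is read on the other strand. The search used the consensus hexamer AGGTCA with its variants AGTTCA, then GGGTCA, and lastly GGTTCA, on both strands and in pairs of one orientation. A DR5 of these letters was present in 32 of 32851 windows of this length (0.0974%). Pairs with no spacer, 1 base or 2 bases between the hexamers were present in 0.213%, 0.222% and 0.268% of all windows and in 0 of the 18 windows of the 9 genes. A hexamer of its own was present in 9 of those 18 windows and in 43.7% of all windows. A match describes letters in a window and is not a site of binding.

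The libraries held 63617410 to 110569127 counts, so that 3 counts, the most a count of 0 allows, correspond to 0.0268 to 0.0460 CPM. Levels are given as CPM, the counts scaled to a library total of 1000000 after TMM adjustment. Their 95% intervals cover counting error alone, and PCR copies are not independent molecules. The targeted gene was examined before the receptors. Htt (ENSMUSG00000029104, chromosome 5) was at 166 CPM in wild-type ESC and 111 CPM in Htt-null ESC. In RA-DIFF it was at 73.3 CPM in the library labelled wild type and 98.7 CPM in the library labelled Htt-null, which goes against the label. Where the study's own per-gene values could be read, its wild-type RA-DIFF condition goes with the deposited column labelled Htt-null and its Htt-null condition with the column labelled wild type, whereas both ESC columns go with their own labels. The RA-DIFF libraries are therefore named by their labels, and exchanging the labels turns the sign of every RA-DIFF difference between genotypes given here and pairs each RA-DIFF library with the other ESC library in the stage comparisons. Stage labels held up against marker genes. Summed over 8 pluripotency genes the level was 4074 and 3956 CPM in ESC against 53.0 and 14.7 CPM in RA-DIFF, and over 7 neural progenitor genes it was 48.1 and 59.7 CPM against 2561 and 2542 CPM. The RA-DIFF libraries differed in other cell type markers. The summed level of 18 fibroblast and mesenchyme genes was 1075 CPM in the library labelled wild type and 3593 CPM in the library labelled Htt-null, and that of 12 neuron genes 3170 and 1435 CPM. The sums of 8 endothelium genes were 30.3 and 86.7 CPM and those of 8 endoderm genes 18.5 and 59.8 CPM in the same order. In ESC the fibroblast and mesenchyme sum was 101 CPM in wild-type and 68.0 CPM in Htt-null cells.

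Between the stages, the receptors traded places. The COUP-TF genes went from almost no reads in ESC to more than 70 CPM in RA-DIFF, Rarb was higher in RA-DIFF, Rarg and Rara were lower, and Rxrb stayed at a like level. A gene was called when its log2 ratio between 2 libraries was above 0.75 in either direction. In cells labelled wild type, 7 of the 9 genes were called between RA-DIFF and ESC, where 57.3% of all genes above the expression limit were called. Of these, Rarb, Rxra, Rxrg, Nr2f1 and Nr2f2 were higher in RA-DIFF (32.4% of all genes were higher) and Rara and Rarg were lower (24.9%). In cells labelled Htt-null the number was again 7, against 56.3% of all genes, with Rarb, Rxra, Nr2f1, Nr2f2 and Nrip1 higher (32.9%) and Rara and Rarg lower (23.5%). Called in both genotypes were Rarb, Rxra, Nr2f1 and Nr2f2 as higher, against 27.0% of all genes, and Rara and Rarg as lower, against 19.6%. Rara and Rxra were called in neither genotype with an exact test at an assumed dispersion of 0.1 added to the fold limit, nor was Nrip1 in cells labelled Htt-null. The RA-DIFF levels did not overlap the ESC levels for 8 of the 9 genes, which was also so for 82.4% of all genes. The number of calls was thus near the background.

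**Figure D1:**
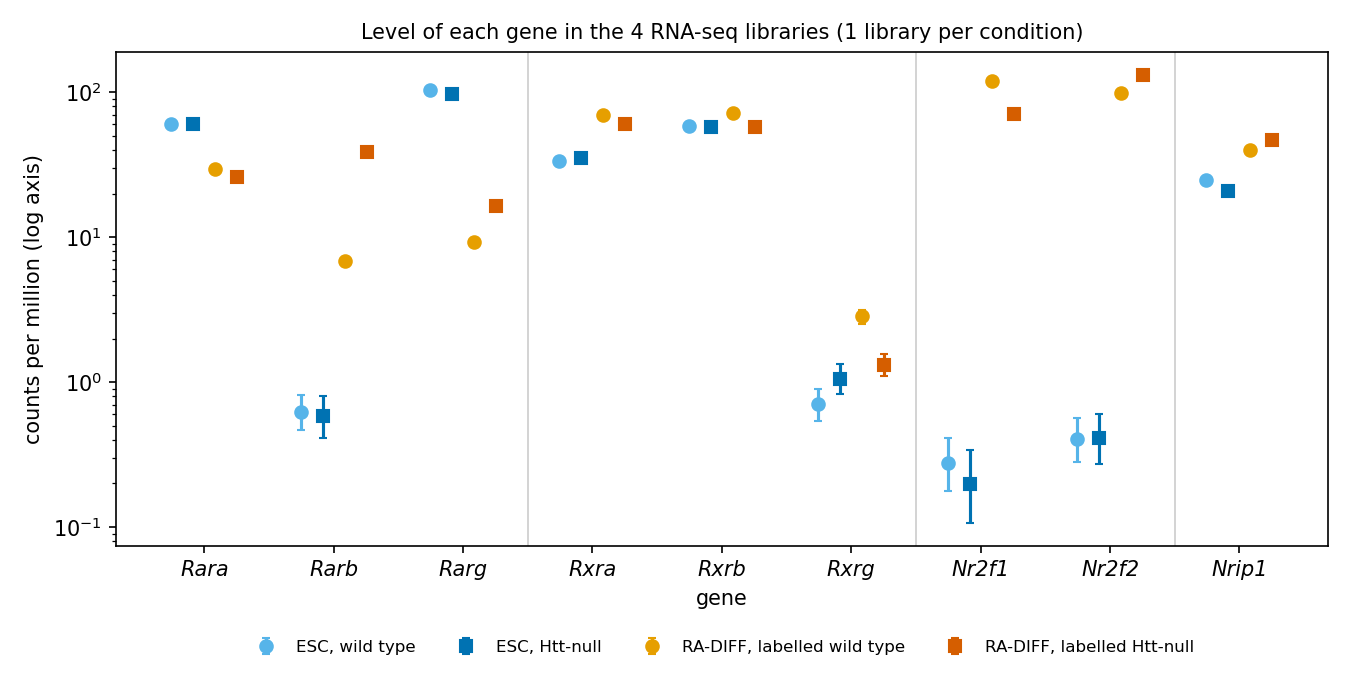
Level of each gene in CPM (log axis) in the 4 RNA-seq libraries, with exact Poisson 95% intervals that cover counting error only. Nr2f1 and Nr2f2 sit below 0.5 CPM in both ESC libraries and at or above 71.0 CPM in both RA-DIFF libraries, and Rarb is the gene whose RA-DIFF libraries lie farthest apart.

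Among the retinoic acid receptors, Rarg was the most abundant in ESC. Rarg (ENSMUSG00000001288, chromosome 15 of GRCm38, 102234938 to 102257517, minus strand) encodes the receptor that predominates in stem cells and later in skin and cartilage. It had 9039 counts (104 CPM) in wild-type ESC, 6385 (97.9 CPM) in Htt-null ESC, 1037 (9.25 CPM) in RA-DIFF labelled wild type and 1605 (16.3 CPM) in the one labelled Htt-null. Both ESC libraries were far above both RA-DIFF libraries. The level was 11.3-fold lower (interval 10.6 to 12.0) in RA-DIFF than in ESC by the wild-type label and 6.01-fold lower (5.68 to 6.35) by the Htt-null label.

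Rara (ENSMUSG00000037992, chromosome 11, 98927818 to 98974942, plus strand), the broadly expressed receptor of the group, had 5216 counts in wild-type ESC and 3923 in Htt-null ESC, or 60.1 CPM in each. In RA-DIFF it had 3307 counts (29.5 CPM) in the library labelled wild type and 2562 (26.0 CPM) in the one labelled Htt-null. The ESC libraries could not be told apart within counting error, with a ratio of 1.00 (0.959 to 1.04), and both lay above both RA-DIFF libraries. Across the 4 ways of pairing an RA-DIFF library with an ESC library, the log2 ratio was between -1.21 and -1.03. On chromosome 11, the median Htt-null to wild-type log2 ratio in ESC was 0.21 over 1152 genes, against -0.06 on the other chromosomes, while that of Rara was -0.00. Between the RA-DIFF libraries, by the labels, the chromosome 11 median was 0.01, against -0.01 on the other chromosomes.

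Rarb (ENSMUSG00000017491, chromosome 14, 16430842 to 16575472, minus strand), whose promoter repeat is printed above, is the receptor that retinoic acid itself induces. It had 54 counts (0.623 CPM, interval 0.468 to 0.812) in wild-type ESC and 38 (0.583 CPM, 0.412 to 0.800) in Htt-null ESC. In RA-DIFF it had 765 counts (6.83 CPM) in the library labelled wild type and 3805 (38.6 CPM) in the one labelled Htt-null. The ESC libraries were alike, both RA-DIFF libraries were above them, and the RA-DIFF libraries differed 5.66-fold from each other (5.24 to 6.12). The RA-DIFF level was 11.0-fold the ESC level (8.31 to 14.7) by the wild-type label and 66.3-fold (48.2 to 93.9) by the Htt-null label.

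The retinoid X receptors are the common partners of the group. Rxra (ENSMUSG00000015846, chromosome 2, 27676440 to 27762957, plus strand) had 2897 counts (33.4 CPM) in wild-type ESC, 2277 (34.9 CPM) in Htt-null ESC, 7822 (69.8 CPM) in RA-DIFF labelled wild type and 5972 (60.6 CPM) in the one labelled Htt-null. Both RA-DIFF libraries were above both ESC libraries, with log2 ratios of 1.06 and 0.80. The smaller ratio is close to the fold limit, and with library size alone it was 0.72 and no longer called.

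Rxrb (ENSMUSG00000039656, chromosome 17, 34031812 to 34038393, plus strand), the ubiquitous member, had 5059 counts (58.3 CPM) in wild-type ESC, 3757 (57.6 CPM) in Htt-null ESC, 8039 (71.7 CPM) in RA-DIFF labelled wild type and 5652 (57.4 CPM) in the one labelled Htt-null. It was the single member whose stages overlapped, with log2 ratios between -0.02 and 0.32 over the 4 pairings. Its sign between stages depends on the library taken.

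Rxrg (ENSMUSG00000015843, chromosome 1, 167598384 to 167639623, plus strand), a receptor of muscle, brain and a few other tissues, was low throughout. It had 61 counts (0.703 CPM, interval 0.538 to 0.904) in wild-type ESC, 69 (1.06 CPM, 0.823 to 1.34) in Htt-null ESC, 318 (2.84 CPM, 2.53 to 3.17) in RA-DIFF labelled wild type and 130 (1.32 CPM, 1.10 to 1.57) in the one labelled Htt-null. The library labelled wild type stood above the other 3, and the intervals of RA-DIFF labelled Htt-null and of Htt-null ESC overlap. The log2 ratio between stages was 1.98 by the wild-type label and 0.31 by the Htt-null label.

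The COUP-TF genes had the largest ratios of the 9. Nr2f1 (COUP-TFI, ENSMUSG00000069171, chromosome 13, 78188973 to 78199757, minus strand), a regulator of cortical patterning and neuronal differentiation, had 24 counts (0.277 CPM, interval 0.177 to 0.412) in wild-type ESC and 13 (0.199 CPM, 0.106 to 0.341) in Htt-null ESC. In RA-DIFF it had 13299 counts (119 CPM) in the library labelled wild type and 6989 (71.0 CPM) in the one labelled Htt-null. The ESC counts are small, so the ratios of 429-fold (288 to 670) and 356-fold (208 to 669) are loosely bounded. They rank 54 and 57 from the top among 14417 genes.

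Nr2f2 (COUP-TFII, ENSMUSG00000030551, chromosome 7, 70351946 to 70366735, minus strand), a regulator of mesenchymal, venous and atrial development, had 35 counts (0.404 CPM, interval 0.281 to 0.561) in wild-type ESC and 27 (0.414 CPM, 0.273 to 0.602) in Htt-null ESC. In RA-DIFF it had 11019 counts (98.3 CPM) in the library labelled wild type and 12939 (131 CPM) in the one labelled Htt-null. The stages were 244-fold (175 to 350) and 317-fold (218 to 482) apart, ranks 89 and 60. In the library labelled wild type Nr2f1 had the more counts, and in the library labelled Htt-null Nr2f2 had.

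Nrip1 (ENSMUSG00000048490, chromosome 16, 76287400 to 76373827, minus strand) is itself a known retinoic acid target in several cell types. It had 2160 counts (24.9 CPM) in wild-type ESC, 1348 (20.7 CPM) in Htt-null ESC, 4473 (39.9 CPM) in RA-DIFF labelled wild type and 4596 (46.7 CPM) in the one labelled Htt-null. Both RA-DIFF libraries were above both ESC libraries. The log2 ratio was 0.68 by the wild-type label, short of the limit, and 1.17 by the Htt-null label, past it.

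With the RA-DIFF labels exchanged, several of these stage ratios moved by more than 1.5 times. For Rarb the RA-DIFF level was then 62.1-fold (interval 47.5 to 82.8) that of wild-type ESC and 11.7-fold (8.46 to 16.7) that of Htt-null ESC, so that the genotype with the larger ratio changes. Rarg was lower 6.40-fold (6.06 to 6.75) against wild-type ESC and 10.6-fold (9.90 to 11.3) against Htt-null ESC. Nr2f1 was 256-fold (172 to 401) and 596-fold (348 to 1119) higher in the same order. The log2 ratios of Rxrg became 0.89 and 1.41 and those of Nrip1 0.91 and 0.95, past the limit in both genotypes. The direction between stages could not change for the 8 genes whose stages do not overlap, since the exchange only pairs the same libraries differently.

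Levels of different genes were compared per length, as CPM per kilobase of the exons of all annotated transcripts. The summed level of the 3 retinoic acid receptors was 38.4 in wild-type ESC, 36.9 in Htt-null ESC, 10.2 in RA-DIFF labelled wild type and 17.1 in the one labelled Htt-null. For the retinoid X receptors it was 21.1, 21.3, 32.1 and 26.1 in the same order, and for the COUP-TF receptors 0.101, 0.0871, 34.7 and 29.2. The retinoic acid receptor transcripts thus exceeded the retinoid X receptor transcripts in both ESC libraries, by ratios of 1.82 and 1.73, and were fewer in both RA-DIFF libraries, with ratios of 0.319 and 0.655. With the length of the longest transcript instead, these ratios were 1.81, 1.73, 0.328 and 0.736.

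The make-up of the retinoic acid receptor sum also differed. Rarg supplied 63.8% and 62.3% of it in wild-type and Htt-null ESC, and 21.2% and 22.3% in the RA-DIFF libraries labelled wild type and Htt-null. Rara supplied 66.1% in RA-DIFF labelled wild type, where it led, and 34.8% in the one labelled Htt-null. Rarb supplied 0.308% and 0.300% in ESC, 12.7% in RA-DIFF labelled wild type and 42.9% in the one labelled Htt-null, where it led. Rxrb was the larger part of the retinoid X receptor sum in all 4 libraries, from 55.3% to 69.6%.

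**Figure D2:**
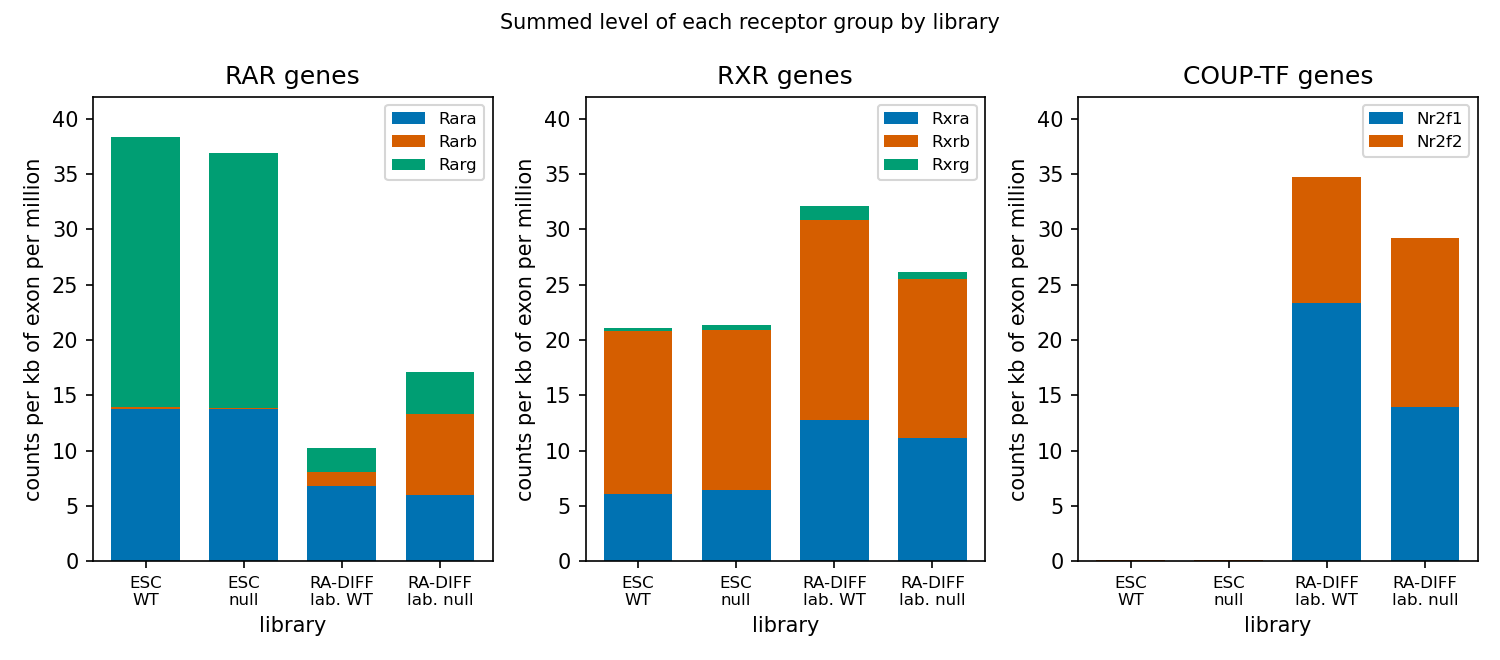
Stacked bars of the level per kilobase of exon (CPM per kilobase, axis from 0) of the retinoic acid receptors (RAR), retinoid X receptors (RXR) and COUP-TF receptors in the 4 libraries, 1 library per bar (lab., labelled). The RAR sum is 38.4 and 36.9 in ESC and 10.2 and 17.1 in RA-DIFF, while the COUP-TF sum is below 0.2 in ESC and 34.7 and 29.2 in RA-DIFF.

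The comparison of genotypes asks whether the receptors differ between wild-type and Htt-null cells at each stage. In ESC, 0 of the 9 genes were called, where 6.57% of all genes were (3.93% higher and 2.64% lower in Htt-null cells). Their Htt-null to wild-type log2 ratios were between -0.43 (Nr2f1, 13 against 24 counts) and 0.57 (Rxrg, 69 against 61 counts), inside the 5th to 95th percentile of all genes, which ran from -0.58 to 0.68. With edgeR's exact test at an assumed dispersion of 0.1 or 0.01 added to the fold limit, the count was 0 as well. The ESC libraries also differed in cell type markers. Of 17 fibroblast and mesenchyme genes above the expression limit, 10 were called lower in Htt-null cells and 0 higher (median -0.81). Of 12 neuron genes 1 was lower and 3 were higher, and of 7 neural progenitor genes 1 and 2. Of 6 endothelium genes it was 0 and 1, of 5 endoderm genes 1 and 0, and of 8 pluripotency genes 0 and 0. The part of feeder cells or of cell make-up in the receptor ratios was not tested.

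In RA-DIFF, 3 of the 9 genes were called between the libraries, against 18.3% of all genes. Rarb (2.5) and Rarg (0.82) had the higher level in the one labelled Htt-null, where 11.0% of all genes were higher, and Rxrg (-1.09) was lower, where 7.37% were. The ratio of Rarb ranks 129 from the top among 14417 genes, outside the 5th to 95th percentile of -0.95 to 1.29. Nr2f1, with a log2 ratio of -0.74, fell just short of the limit, while Nr2f2 was at 0.42, so the COUP-TF genes differed in sign. The remaining ratios were -0.18 for Rara, -0.20 for Rxra, -0.32 for Rxrb and 0.23 for Nrip1. The fibroblast and mesenchyme markers moved with Rarb and Rarg between these libraries: 15 of the 17 genes above the expression limit were called higher in the library labelled Htt-null (median log2 ratio 1.53), whereas 10 of 12 neuron genes were called lower, with a median of -1.37. Of the 8 pluripotency genes 7 were called lower as well, with a median of -2.77, and of the 7 neural progenitor genes 3, with a median of -0.65. Of 6 endothelium genes above the expression limit 2 were called higher and 1 lower, and of 5 endoderm genes 2 and 0, both with a median of 0.48. Their part in the differences of the receptors was not tested. At a dispersion of 0.1 Rarb alone was called, and a fold limit of 1 left Rarb and Rxrg.

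**Figure D3:**
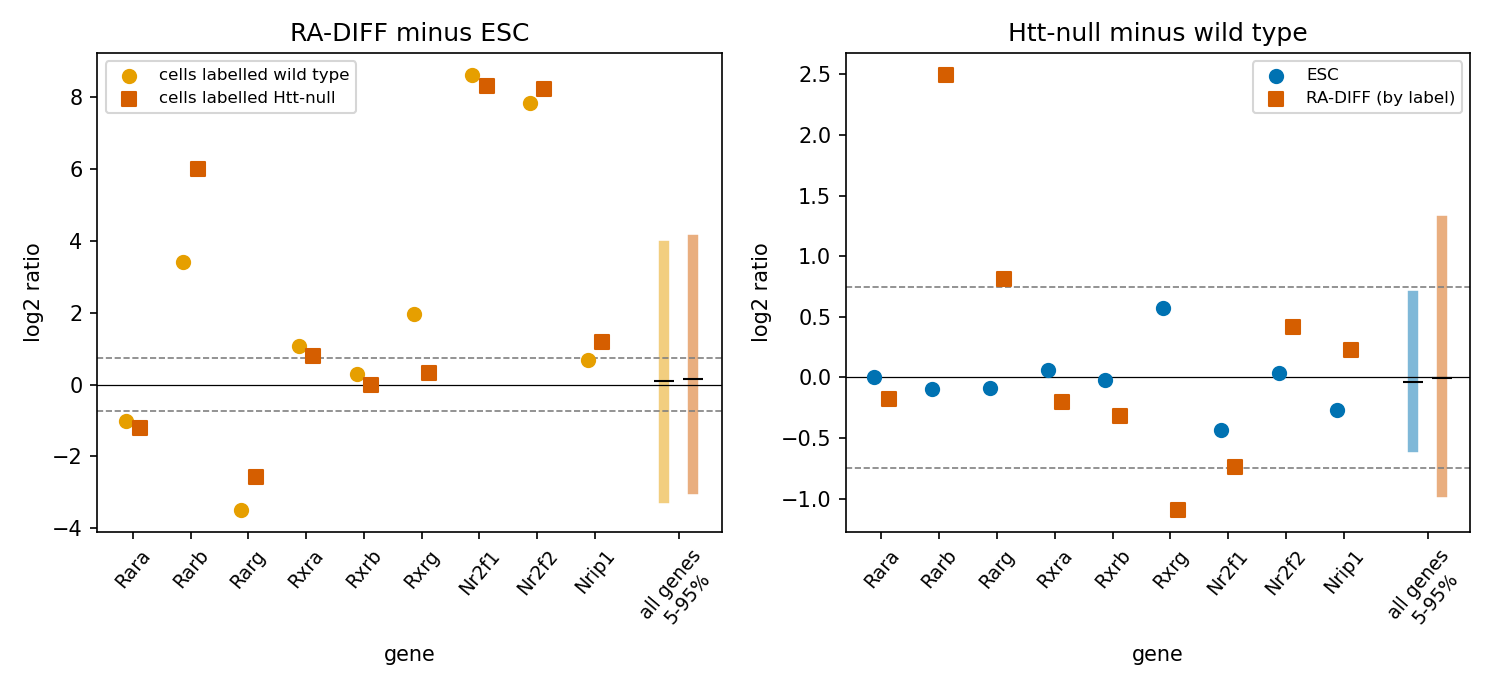
Log2 ratios of the 9 genes, on the left RA-DIFF minus ESC in cells labelled wild type and Htt-null, on the right Htt-null minus wild type in ESC and, by the labels, in RA-DIFF. Dashed lines mark the fold limit of 0.75 in either direction, and the bars at the right of each panel span the 5th to 95th percentile of the 14417 genes above the expression limit with a tick at their median. Rarb lies above the bar in RA-DIFF at 2.5, and in ESC no gene passes a dashed line.

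The partners and targets of the receptors were taken from lists. As background, calls between stages took in 32.4% (higher) and 24.9% (lower) of all genes in cells labelled wild type, and 32.9% and 23.5% in cells labelled Htt-null. Of the 8 corepressor complex genes, 3 were called higher in RA-DIFF than in ESC in cells labelled wild type and 1 lower, with a median log2 ratio of 0.13 against 0.11 over all genes, and in cells labelled Htt-null 3 and 0, with a median of 0.42 against 0.16. Hdac3, a deacetylase of these complexes, was higher by log2 ratios of 1.23 and 1.27, and Gps2, another subunit, by 1.31 and 1.03. Sin3a, a scaffold of a deacetylase complex, had log2 ratios of -0.93 and -0.74, the second short of the limit. Between genotypes, 0 of the 8 were called in ESC (6.57% of all genes), with a median of -0.09 against -0.04 over all genes.

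Of the 8 coactivator genes, 1 was called higher and 3 lower in RA-DIFF in cells labelled wild type (median -0.00 against 0.11 over all genes), and 1 and 2 in cells labelled Htt-null (median 0.02 against 0.16), where 32.4% and 24.9%, and 32.9% and 23.5%, of all genes were. Crebbp, a histone acetyltransferase, was the higher one, with log2 ratios of 1.98 and 2.11. Ncoa3, a coactivator of the p160 family, was lower by log2 ratios of -2.52 and -1.91, and the acetyltransferase gene Kat2b by -2.34 and -1.80. Ep300, the paralogue of Crebbp, was at -0.87 and -0.58. Between genotypes 0 of the 8 were called at either stage, where 6.57% of all genes were in ESC and 18.3% in RA-DIFF. The medians were -0.11 in ESC and 0.13 in RA-DIFF, against -0.04 and -0.01 over all genes.

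Of the 13 genes for partners of retinoid X receptors outside the retinoic acid receptor group, 6 were above the expression limit. In cells labelled wild type 3 of them were higher in RA-DIFF and 1 lower, and in cells labelled Htt-null 4 and 1, against 32.4% and 24.9%, and 32.9% and 23.5%, of all genes. The medians were 1.31 and 1.53, against 0.11 and 0.16 over all genes. The thyroid hormone receptor genes Thra (3.00 and 2.30) and Thrb (2.67 and 3.26) and the orphan receptor gene Nr4a2 (2.10 and 3.13) were higher, and Nr4a1 was lower (-2.20 and -1.37). Between genotypes, Nr4a2 was called lower in Htt-null ESC (-0.77), where 2.64% of all genes were, though not with library size alone, and 0 of the 6 were called in RA-DIFF, against 18.3% of all genes.

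A list of 11 direct retinoic acid targets, of which 8 were above the expression limit, holds enzymes, carriers and Hox genes next in line after the receptors. In cells labelled wild type 4 of the 8 were higher in RA-DIFF than in ESC and 2 lower, with a median log2 ratio of 1.59, and in cells labelled Htt-null 6 and 1, with a median of 3.00. The shares of all genes were 32.4% and 24.9%, and 32.9% and 23.5%, and the medians 0.11 and 0.16. Between the RA-DIFF libraries 5 were higher in the one labelled Htt-null and 2 lower, with a median of 1.15 by the labels, where 11.0% of all genes were higher and 7.37% lower with a median of -0.01. In ESC 0 were higher and 1 lower, with a median of -0.09, where 3.93% and 2.64% of all genes were. The lower one was Cyp26b1 (-0.76, with 26 counts in wild-type and 11 in Htt-null ESC), which was not called with library size alone. The direction of the RA-DIFF calls thus differed within the list. Cyp26b1, a retinoic acid hydroxylase, was at 0.300, 0.169, 158 and 12.6 CPM in wild-type ESC, Htt-null ESC and the RA-DIFF libraries labelled wild type and Htt-null, a log2 ratio of -3.65 between the last pair. Crabp2, which carries retinoic acid to the receptors, was at 2.23, 3.00, 62.5 and 20.7 CPM. Stra6, the retinol uptake receptor, was at 0.888, 1.21, 8.0 and 26.5 CPM, and so had the same order as Rarb in RA-DIFF.

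Stra8, a meiotic gatekeeper gene, went against the name of the list. It was at 26.2, 19.3, 1.44 and 1.32 CPM and so lower in RA-DIFF. Tgm2 and Dhrs3, chosen after their values were seen, encode transglutaminase and a retinaldehyde reductase. Tgm2 was at 16.1, 16, 3.31 and 20.6 CPM and Dhrs3 at 2.48, 2.02, 3.69 and 19.0 CPM, so both were low in RA-DIFF labelled wild type and high in the one labelled Htt-null, like Rarb. Cyp26a1, whose promoter repeat is printed above, stayed under the expression limit with 50, 10, 106 and 114 counts. Of the 31 genes with a DR5, 14 are in the count table and 6 were above the expression limit. In RA-DIFF 2 of the 6 were higher and 3 lower than in ESC by either label, where 32.4% and 24.9% of all genes were in cells labelled wild type and 32.9% and 23.5% in cells labelled Htt-null. Chosen after their values were seen, the higher genes were Rarb itself and Prokr2, a prokineticin receptor gene, and the lower ones Blvrb, Gm4631 and Syndig1. Between genotypes 0 of the 6 passed the fold limit in ESC, against 6.57% of all genes. In RA-DIFF Rarb was the 1 higher gene and 0 were lower, against 11.0% and 7.37%. These numbers are too small to read a direction from.

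The 8 receptors of the group were ranked per length among 48 nuclear receptor genes. In wild-type ESC the order was Esrrb (96.9), Nr0b1 (61.4), Nr1h2 (26.9), Rarg (24.5) and Rxrb (14.7), with Rara at rank 6 and Rxra at rank 11. In Htt-null ESC Rarg ranked 3 with 23.0 against 22.1 for Nr1h2, and Nr5a2 at rank 5 (15.0) preceded Rxrb at rank 6 (14.5). With the longest transcript as length both orders turn in Htt-null ESC, with Nr1h2 at 37.0 above Rarg at 33.1 and Rxrb at 21.9 above Nr5a2 at 18.7. Esrrb, Nr0b1 and Nr5a2 belong to the pluripotency network of stem cells, and Nr1h2 encodes a liver X receptor. The other receptors of the group stood lower. Rxrg ranked 25 and 23, Rarb 31 and 34, Nr2f1 36 and 39, and Nr2f2 39 and 38 in wild-type and Htt-null ESC.

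In RA-DIFF the order was led by Thra in both libraries, at 29.7 in the one labelled wild type and 21.3 in the one labelled Htt-null. In the library labelled wild type Nr2f1 (23.3), Rxrb (18.1), Nr1h2 (17.5) and Nr2e1 (13.1), an orphan receptor of neural stem cells, followed. In the library labelled Htt-null they were Nr2f2 (15.2), Nr1h2 (14.8), Rxrb (14.4) and Nr2f1 (13.9), values close to each other. With the longest transcript as length Nr2f1 (22.1) preceded Rxrb (21.8) in the library labelled Htt-null. In the one labelled wild type Nr1h2 (29.4) then preceded Rxrb (27.3), and Nr2f2 (23.3) took the place of Nr2e1 (14.8). Rarg ranked 17 and 16, Rara 9 and 11, Rarb 23 and 10, and Rxrg 24 and 30 in the libraries labelled wild type and Htt-null. Of the 30 receptor genes above the expression limit, 12 were higher and 9 lower in RA-DIFF in cells labelled wild type, and 12 and 8 in cells labelled Htt-null, against 32.4% and 24.9%, and 32.9% and 23.5%, of all genes. Between genotypes 1 was higher and 3 lower in Htt-null ESC, against 3.93% and 2.64% of all genes, and 4 were higher and 4 lower in RA-DIFF labelled Htt-null, against 11.0% and 7.37%. Chosen after their values were seen, those in ESC were Nr1d1 (0.96) and, as lower, Nr2e1 (-1.68), Pgr (-0.95) and Nr4a2 (-0.77). The Nr2e1 ratio rests on 17 counts in wild-type ESC and 3 in Htt-null ESC, near the floor. That gene passed the expression limit only through RA-DIFF (48.5 and 34.0 CPM). In RA-DIFF, by the labels, Nr3c1 (1.28), the glucocorticoid receptor gene, and Nr1d2 (0.84), a circadian repressor gene, were higher beside Rarb and Rarg, and Nr0b1 (-3.30), Esrrb (-2.66) and Nr6a1 (-1.03) lower beside Rxrg.

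**Figure D4:**
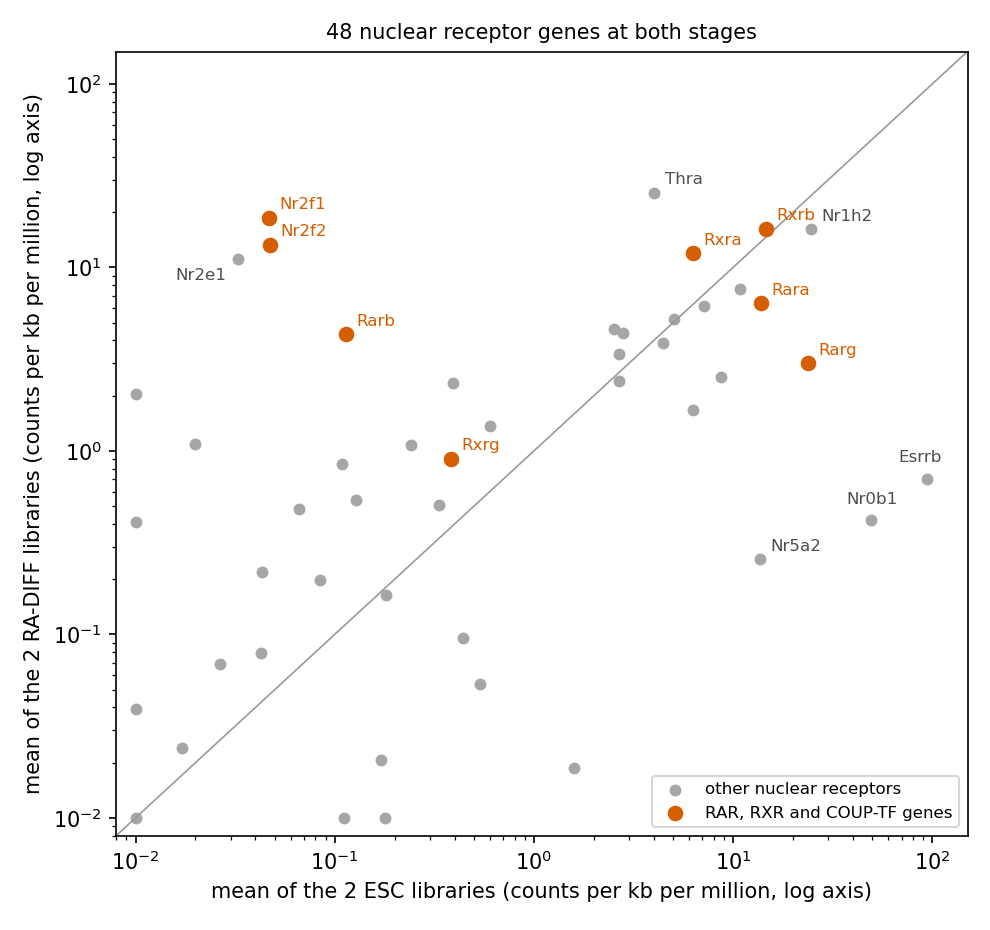
Mean level of 48 nuclear receptor genes in the 2 ESC libraries (horizontal, log axis) and the 2 RA-DIFF libraries (vertical, log axis), in CPM per kilobase of exon, with the line of equal levels and values under 0.01 drawn at 0.01. Nr2f1, Nr2f2 and Rarb lie far above the line, Rarg and Rara below it, and Rxrb close to it.

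Genes with profiles most like those of the 3 most variable members were sought among 13152 protein-coding genes above the expression limit, by the root mean square difference of log2 CPM over the 4 libraries after each gene's own mean was taken off. For Nr2f1 they were Add2 (0.18), Ctnna2 (0.19) and Nav3 (0.26), which encode an adducin, a catenin of neurons and a navigator protein. For Nr2f2 they were Ptprz1 (0.11), Pcdh10 (0.17) and Cdh2 (0.17), which encode a receptor phosphatase, a protocadherin and N-cadherin. For Rarb they were Calcrl (0.13), the receptor gene with 58, 46, 843 and 3538 counts, Sema3a (0.18), which encodes a secreted guidance cue, and Shisa3 (0.19). With 4 libraries many genes share a profile, and the list is a description.

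Some of the members share ground with other genes. The protocol in the labels names a strand-specific dUTP method, and the study's methods set no strand option for the counting and otherwise leave programs at their defaults. Genes annotated as antisense, 1810 in the table, held 0.106% to 0.133% of the counts of a library, and protein-coding genes 96.9% to 98.3%. How reads were assigned where genes on opposite strands overlap was not tested. Rarb shares 4624 bases with Top2b, a topoisomerase gene on the plus strand, which had 15796, 8622, 65550 and 49917 counts and a log2 ratio of -0.21 between the RA-DIFF libraries, against 2.5 for Rarb. Nr2f1 shares 1741 bases with the antisense gene A830082K12Rik, which had 47, 32, 2530 and 1678 counts. Nr2f2 shares 1826 bases with B130024G19Rik, which had 2, 7, 321 and 438 counts. These transcripts thus followed the stages as their neighbours did, with log2 ratios of 5.32 and 5.06 for A830082K12Rik and 6.0 and 5.11 for B130024G19Rik, and the part that shared reads have in this was not tested.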

How the data were processed

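RNA-seq was carried out on 4 libraries, 1 per condition. Paired-end reads of 50 bp were mapped by the authors to GRCm38.p4 using TopHat2 2.0.14 and GENCODE transcripts. They counted reads per gene with HTSeq 0.6.1 in intersection-nonempty mode, and deposited raw counts for 32567 genes without pooling. The miRNA table of the series was not used.

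Counts were scaled by TMM factors (edgeR 4.0.16, R 4.3.3) over the 4 libraries, and log2 CPM was taken with a prior count of 2. A gene was called when the absolute log2 ratio between 2 libraries was above 0.75 and the log2 CPM, averaged over the 4 libraries, above 0. The study gives the same numbers, without naming the libraries its log2 CPM limit covers. Its p-value was left out, because 1 library per condition leaves no spread within a condition to test. The averaged limit drops some genes nearly absent from ESC, such as Nr4a3 (0 and 1 counts in ESC, 1231 and 1313 in RA-DIFF). Shares of all genes and ranks leave such genes out. Intervals at the 95% level are exact Poisson for CPM and exact conditional binomial for ratios. Gene positions and strands are those of the deposited count table on GRCm38. Exon lengths and the bases shared by overlapping genes are those of GENCODE vM21, which held 32304 of the genes and can differ slightly in gene ends. Calls were checked on simulated counts with Poisson error alone. These hold no variation between cultures or libraries, so the check cannot show how often such variation gives a call. Further steps used Python 3.11.15 with scipy 1.17.1, pandas 2.3.3, numpy 2.4.6 and, for figures, matplotlib 3.10.9.

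The 9 genes and all lists were chosen with earlier results of these data known. Named genes are the 9 members, Htt, up to 4 called genes per list by size of ratio, the 5 highest nuclear receptors per length, genes overlapping a member, and 3 genes with the most similar profile for each of the 3 most variable members. Some results that this rule would name are not reported here. Alternatives were library size alone, RLE factors, edgeR's default prior count, no expression limit, a fold limit of 1, edgeR's exact test at assumed dispersions of 0.1 and 0.01, the longest transcript as length, and exchanged RA-DIFF labels.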

Additional observations from a re-analysis of the deposited data

Results flagged for a closer look

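For 5 genes the libraries labelled Htt-null and wild type differed in opposite directions at the 2 stages, and the difference between the stages was not tested. With 1 library per condition, such a split needs only a change of sign. The Htt-null to wild-type log2 ratio of Rarb was -0.09 in ESC and 2.5 in RA-DIFF by the labels, and that of Rxra 0.06 and -0.20, and both ESC ratios lie within counting error. That of Rarg was -0.09 in ESC and 0.82 in RA-DIFF by the labels. Rxrg, at 61 to 318 counts, had 0.57 in ESC and -1.09 in RA-DIFF. Nrip1 had -0.27 in ESC and 0.23 in RA-DIFF. With the RA-DIFF labels exchanged, the signs of these 5 genes are the same at both stages, and those of the other 4 become opposite, at -0.43 and 0.74 for Nr2f1, 0.03 and -0.42 for Nr2f2, -0.02 and 0.32 for Rxrb, and -0.00 and 0.18 for Rara.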

How the results depend on the processing

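Each condition has 1 library and the labels carry no replicate numbers, so the genotypes could not be paired within a stage. No library could be left out for the same reason. The stages were compared within each genotype as labelled, and no paired test was run on them. The RLE factors and edgeR's default prior count left the members called in each of the 4 comparisons as they were, as did dropping the expression limit and the exact test at a dispersion of 0.01. With library size alone, 2 members were lower in RA-DIFF labelled Htt-null (Rxrg and Nr2f1, at -0.80), and with a fold limit of 1, 1 was higher (Rarb). In both of these settings Rxra was not called in cells labelled Htt-null. At a dispersion of 0.1 the RA-DIFF genotype calls numbered 1 (1 higher, Rarb, and 0 lower), the calls between stages in cells labelled wild type 5 (4 higher, without Rxra, and 1 lower, Rarg), and the calls in cells labelled Htt-null 4 (3 higher, Rarb, Nr2f1 and Nr2f2, and 1 lower, Rarg). With the RA-DIFF labels exchanged, 1 member was higher and 2 lower in RA-DIFF, with log2 ratios of -2.5 for Rarb, -0.82 for Rarg and 1.09 for Rxrg, and the stage comparison gave 6 higher and 2 lower in either genotype, where 33.0% and 23.9% of all genes were in wild-type cells and 32.0% and 24.2% in Htt-null cells. Over all genes, the calls higher and lower in ESC were 566 and 381, but 96 and 62 at a dispersion of 0.1, 302 and 172 with a fold limit of 1, and 5217 and 2943 without the expression limit. In RA-DIFF they were 1579 and 1062, but 694 and 378, 1107 and 653, and 4204 and 4384 in the same order of settings. Between stages they were 4675 and 3585 in cells labelled wild type, but 3128 and 2227 at a dispersion of 0.1 and 10162 and 8674 without the expression limit, and 4739 and 3383 in cells labelled Htt-null, but 3185 and 2020, and 9567 and 9945. The ratios of Nr2f1, Nr2f2, Rarb and Rxrg rest on 13 to 69 ESC counts, which limits their precision.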
